A study of Capra hircus with 10 samples.

Results

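The genes described are 10 enzymes that make fatty acids and lengthen or desaturate them: ACLY, ACSS2, ACACA, FASN, ELOVL6, ELOVL1, ELOVL5, SCD, FADS1 and FADS2. The rule takes them by symbol and uses no measured value, though they were picked with earlier results of these data known. They are 10 of the 17197 genes of the table, and each was found through its NCBI gene identifier: 102181894 for ACLY, 102169772 for ACSS2, 100861224 for ACACA, 100861286 for FASN, 102181762 for ELOVL6, 102170380 for ELOVL1, 100861282 for ELOVL5, 100860763 for SCD, 102178247 for FADS1 and 102171133 for FADS2. All 10 were among the 11340 genes tested, those that reached 1 FPKM in 2 or more libraries. FPKM scales the fragments of a gene to its transcript length and to the mapped total of the library, so levels can be compared between genes. RNA of goat mammary gland cells was sequenced in 10 libraries, 2 in each of 5 groups.

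All 5 groups held cells of the Lanshan dairy goat grown in 3D culture. Blank is labelled only as a control, and Lv5NC and Lv3NC have the genotypes 5NC and 3NC, which the series text names before the overexpression and the knockdown. OV55666 is labelled as overexpression of lncRNA55666, a long noncoding RNA, and KD553 as its knockdown. The series text says that a virus carried the gene or the inhibition. No label says what else the Blank, Lv5NC and Lv3NC cells received, or gives the age or number of the animals. No row is named for lncRNA55666, so its level is not analysed here and neither manipulation could be checked. Nothing says that the libraries of a group were separate cultures, so p-values measure no more than how much these libraries vary, and that variation may be technical. The KD553 libraries are numbered here by their column names, which do not match the numbers in their descriptions.

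ACLY cleaves citrate in the cytosol to acetyl-CoA, and ACSS2 makes acetyl-CoA from acetate, which is a main carbon source for milk fat in ruminants. ACACA carboxylates acetyl-CoA to malonyl-CoA, and FASN joins these units into saturated chains up to palmitate. ELOVL6 lengthens palmitate, SCD puts the first double bond into saturated chains, and ELOVL1 makes very long saturated and monounsaturated chains. FADS2, ELOVL5 and FADS1 act on polyunsaturated chains. Many of these genes are known targets of the SREBP transcription factors, which also drive sterol synthesis. In the lactating gland they are known for their part in milk fat synthesis by luminal epithelial cells.

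The labelled cell type was compared with marker genes. All 10 fibroblast markers exceeded 1 FPKM in every library, whereas 10 of 12 luminal epithelial markers stayed below 1 FPKM in all of them. KRT8 and EPCAM reached at most 0.02 FPKM and CDH1 0.01, while ESR1 lay between 5.15 and 12.03 and CLDN4 reached 1.04. Of 8 adipocyte markers with a row, 5 stayed below 1 FPKM, and PPARG reached 0.05. The others were higher, with PNPLA2 between 13.82 and 18.02 FPKM, CIDEA between 7.58 and 11.05 and CIDEC between 3.13 and 7.41. Of 8 milk secretion markers, 4 had a row, and 2 of those stayed below 1 FPKM in all libraries. The milk protein gene CSN3 reached 0.05 FPKM and XDH 1.84, while PLIN2 lay between 38.2 and 70.2. FPKM summed to 440565 to 460423 per library, and the depth in reads is unknown. On the first principal component, which held 36.7% of the variance, the second Blank library stood farther from the other groups than the first. Comparisons with Blank are therefore given with and without it.

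Levels of the 10 genes spanned more than an order of magnitude. The means over the 10 libraries were 60.2 FPKM for ELOVL1, 33.6 for ELOVL5, 20.9 for ACLY and 18.1 for FASN. SCD followed with 14.1, ELOVL6 with 9.57, FADS1 with 8.93 and ACACA with 8.16, and the lowest means were 5.10 for FADS2 and 2.33 for ACSS2. The desaturases varied most between libraries: the highest value was 13.5 times the lowest for FADS2, 7.36 times for SCD and 2.95 times for FADS1. ELOVL1 and ELOVL5 varied least, by 1.2 and 1.17 times.

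**Figure D1:**
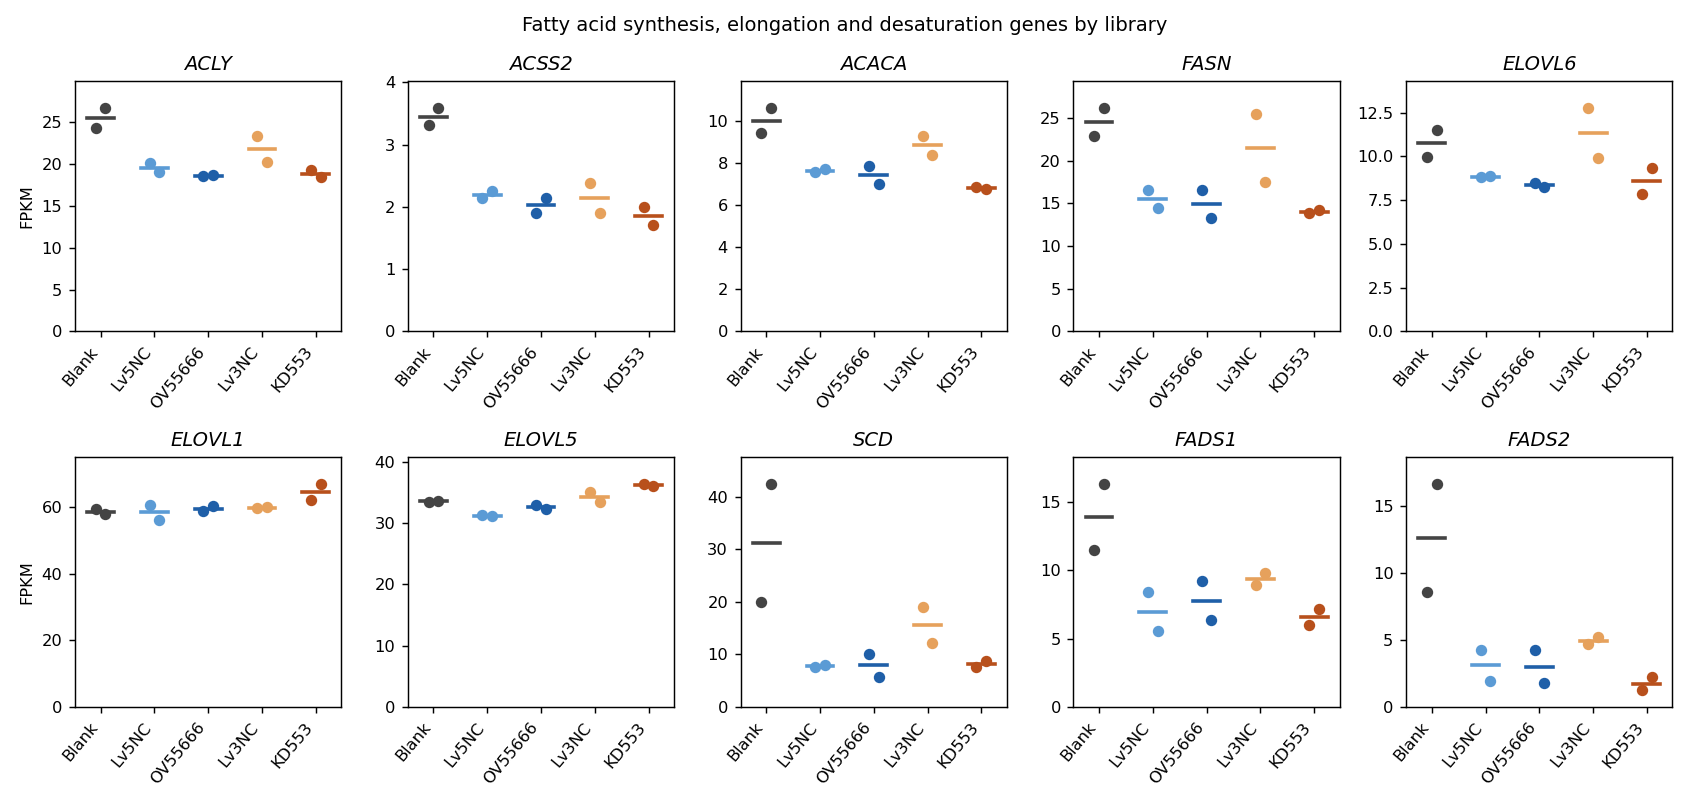
Level of each of the 10 genes (FPKM, vertical axis from 0) in the 5 groups. Each point is a library, with library 1 on the left, and the bar is the mean of 2 libraries. For ACLY, ACSS2, ACACA, SCD, FADS1 and FADS2 both Blank points lie above the other 8.

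Of the genes that supply acetyl-CoA, ACLY was at 24.3 and 26.7 FPKM in the Blank libraries, 20.1 and 19.0 in Lv5NC, 18.6 and 18.7 in OV55666, 23.3 and 20.2 in Lv3NC, and 19.2 and 18.4 in KD553. ACSS2 was at 3.31 and 3.59 FPKM in Blank, 2.14 and 2.25 in Lv5NC, 1.90 and 2.15 in OV55666, 2.38 and 1.90 in Lv3NC, and 1.99 and 1.71 in KD553. Both genes were highest in the 2 Blank libraries. For ACSS2 the other 4 groups overlapped each other, except that KD553 lay below Lv5NC. The ratio of ACLY to ACSS2 was 7.35 and 7.44 in Blank and between 8.44 and 10.8 in the other 8 libraries.

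ACACA, which makes the substrate of chain synthesis, was at 9.42 and 10.6 FPKM in Blank, 7.58 and 7.72 in Lv5NC, 7.85 and 7.0 in OV55666, 9.32 and 8.40 in Lv3NC, and 6.85 and 6.80 in KD553. FASN was at 22.9 and 26.2 FPKM in Blank, 16.6 and 14.4 in Lv5NC, 16.5 and 13.3 in OV55666, 25.5 and 17.5 in Lv3NC, and 13.8 and 14.2 in KD553. ELOVL6 was at 9.97 and 11.5 FPKM in Blank, 8.80 and 8.88 in Lv5NC, 8.47 and 8.27 in OV55666, 12.8 and 9.90 in Lv3NC, and 7.85 and 9.31 in KD553. The first Lv3NC library reached the Blank range for FASN and exceeded it for ELOVL6, while the second did not. The KD553 libraries were the lowest for ACACA.

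The other elongases had a different order. ELOVL1 was at 59.3 and 57.8 FPKM in Blank, 60.7 and 56.0 in Lv5NC, 58.7 and 60.3 in OV55666, 59.58 and 59.99 in Lv3NC, and 62.2 and 67.0 in KD553. ELOVL5 was at 33.5 and 33.6 FPKM in Blank, 31.3 and 31.1 in Lv5NC, 33.0 and 32.2 in OV55666, 35.03 and 33.4 in Lv3NC, and 36.4 and 36.04 in KD553. For both genes the KD553 libraries had the highest values of all 10, by small margins.

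Among the desaturases, SCD was at 19.9 and 42.5 FPKM in Blank, 7.69 and 7.94 in Lv5NC, 10.1 and 5.77 in OV55666, 19.0 and 12.1 in Lv3NC, and 7.61 and 8.83 in KD553. FADS1, the delta-5 desaturase, was at 11.47 and 16.4 FPKM in Blank, 8.40 and 5.54 in Lv5NC, 9.26 and 6.34 in OV55666, 8.97 and 9.81 in Lv3NC, and 6.0 and 7.16 in KD553. FADS2, the delta-6 desaturase, was at 8.59 and 16.7 FPKM in Blank, 4.27 and 1.95 in Lv5NC, 4.23 and 1.81 in OV55666, 4.69 and 5.24 in Lv3NC, and 1.24 and 2.27 in KD553. The 2 Blank libraries differed from each other by 2.14-fold for SCD and 1.94-fold for FADS2. Libraries within Lv5NC and OV55666 differed by 2.19-fold and 2.34-fold for FADS2, as much as some group means did.

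Both Blank libraries lay above all 8 others for 6 of the 10 genes: ACLY, ACSS2, ACACA, SCD, FADS1 and FADS2. The same held for 8.4% of the 11340 genes tested. FASN and ELOVL6 missed it through the first Lv3NC library alone, and without that library the count was 8. The count was again 6 without the second Blank library. With quantile normalization or median centring it was 5. This count, and the comparisons of OV55666 and KD553 with Blank, were added after the values had been seen.

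Set against Blank, KD553 had lower values of 8 genes and higher values of 2, and 4 genes fell at an adjusted p under 0.05 (limma on log2(FPKM + 1), Benjamini-Hochberg adjustment over all genes tested): ACLY, ACSS2, ACACA and FADS2. Of all genes tested, 1.25% were called lower. FADS2 fell by 2.27 ± 0.42 (SE) on the log2(FPKM + 1) scale, from a mean of 12.6 ± 5.73 to 1.76 ± 0.73 FPKM (SD, n = 2), with an adjusted p of 0.0407. ACSS2 fell by 0.64 ± 0.11 (adjusted p = 0.0210), ACACA by 0.49 ± 0.09 (adjusted p = 0.0257) and ACLY by 0.42 ± 0.09 (adjusted p = 0.0434) on that scale, where the change of a gene with low FPKM looks smaller than it is. In bulk RNA fewer cells of a type and less RNA per cell cannot be told apart.

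The other values against Blank did not pass the adjustment in KD553. FASN differed by -0.76 ± 0.17 on the log2 scale (adjusted p = 0.0536), SCD by -1.71 ± 0.37 (adjusted p = 0.0636) and FADS1 by -0.96 ± 0.23 (adjusted p = 0.0742). The difference was -0.29 ± 0.12 for ELOVL6 (adjusted p = 0.252), 0.14 ± 0.08 for ELOVL1 (adjusted p = 0.386) and 0.11 ± 0.07 for ELOVL5 (adjusted p = 0.438). Groups did not overlap for any of the 10, with 8 lower and 2 higher, where 20.4% and 22.7% of all genes tested did so in those directions. At an unadjusted p under 0.05 the count was 8 of 10 genes, against 18% of all genes. The median log2 change was -0.57 over the 10 genes and 0.02 over all genes tested.

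The 4 calls did not hold in all fits that left out a library, and such a fit, with 1 library in a group, detects less. Without the second KD553 library the log2 change was -2.54 for FADS2, -0.57 for ACSS2, -0.49 for ACACA and -0.39 for ACLY. None of the 10 genes was called without the second Blank library or without the second KD553 library, and ACSS2 alone (adjusted p = 0.0451) without the first KD553 library. Without the second Blank library the log2 change was -1.83 for FADS2 (adjusted p = 0.195), -1.18 for SCD, -0.72 for FADS1, -0.67 for FASN, -0.60 for ACSS2, -0.41 for ACACA and -0.35 for ACLY. All of these stayed below 0, with a median over the 10 genes of -0.51. Without the first Blank library 6 genes were called, SCD and FADS1 in addition to the 4. With only the compared groups in the fit, 1 gene was called, and with no filter on low values 2.

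Lv5NC had lower values than Blank for all 10 genes, and none passed the adjustment, against 0.291% of all genes tested. SCD differed by -1.77 ± 0.37 on the log2(FPKM + 1) scale (mean 7.82 ± 0.18 against 31.2 ± 15.98 FPKM, adjusted p = 0.118) and FADS2 by -1.72 ± 0.42 (adjusted p = 0.152). FADS1 differed by -0.91 ± 0.23 (adjusted p = 0.150), FASN by -0.63 ± 0.17 (adjusted p = 0.159) and ACSS2 by -0.48 ± 0.11 (adjusted p = 0.118). ACLY differed by -0.37 ± 0.09 (adjusted p = 0.121), ACACA by -0.35 ± 0.09 (adjusted p = 0.141), ELOVL6 by -0.25 ± 0.12 (adjusted p = 0.438) and ELOVL5 by -0.10 ± 0.07 (adjusted p = 0.586). Of these, 7 (all but ELOVL6 and ELOVL5) had an unadjusted p under 0.05, as did 12.6% of all genes. The groups did not overlap for 9 genes, all lower, where 23.8% of all genes tested were lower in this way and 15.5% higher. Only ELOVL1 overlapped. Without the second Blank library the log2 change was -1.24 for SCD, -1.28 for FADS2, -0.67 for FADS1, -0.54 for FASN, -0.43 for ACSS2, -0.30 for ACLY and -0.27 for ACACA, and the median was -0.37. Without the first, SCD was called, at -2.30 (adjusted p = 0.0227).

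With both of its libraries in the fit, Lv3NC stood nearer to Blank than Lv5NC did in the median of the 10 genes. This did not hold for ACSS2 or ELOVL1. No gene of the 10 was called, against 0.132% of all genes tested, and 4 had an unadjusted p under 0.05, against 14.8%. These were ACSS2 with a difference of -0.51 ± 0.11 on the log2 scale (adjusted p = 0.114), FADS2 with -1.13 ± 0.42 (adjusted p = 0.290), ACLY with -0.22 ± 0.09 (adjusted p = 0.298) and SCD with -0.89 ± 0.37 (adjusted p = 0.331). FADS1 (-0.50 ± 0.23, adjusted p = 0.356) and ACACA (-0.16 ± 0.09, adjusted p = 0.432) were also lower without overlap, which gave 6 lower genes (21.9% of all genes tested) and 1 higher (24.3%), ELOVL1 at 0.03 ± 0.08 (adjusted p = 0.887). The median log2 change was -0.21 for the 10 genes, against -0.42 for Lv5NC and Blank. Without the first Lv3NC library that median was -0.38, near the value for Lv5NC, and SCD was at -1.20. Without the second Lv3NC library the median was -0.11 and SCD was at -0.59. Without the second Blank library the log2 change was -0.36 for SCD, -0.69 for FADS2, -0.26 for FADS1, -0.46 for ACSS2, -0.16 for ACLY and -0.08 for ACACA, so SCD, FADS2, FADS1 and ACACA moved towards 0 by over 1.5 times.

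OV55666 had lower values than Blank for 9 genes, all without overlap (19.9% of all genes tested were lower in this way). None was called, where 0.379% of all genes were, and 8 had an unadjusted p under 0.05, against 11.9%. SCD differed by -1.80 ± 0.37 on the log2 scale (adjusted p = 0.127) and FADS2 by -1.76 ± 0.42 (adjusted p = 0.163). The smallest adjusted p was 0.0841, for ACSS2 at -0.56 ± 0.11. Without the second Blank library SCD was at -1.27, FADS2 at -1.32 and ACSS2 at -0.51, and without the first 2 genes were called. These 4 comparisons share the Blank libraries, so they are not independent of each other.

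**Figure D2:**
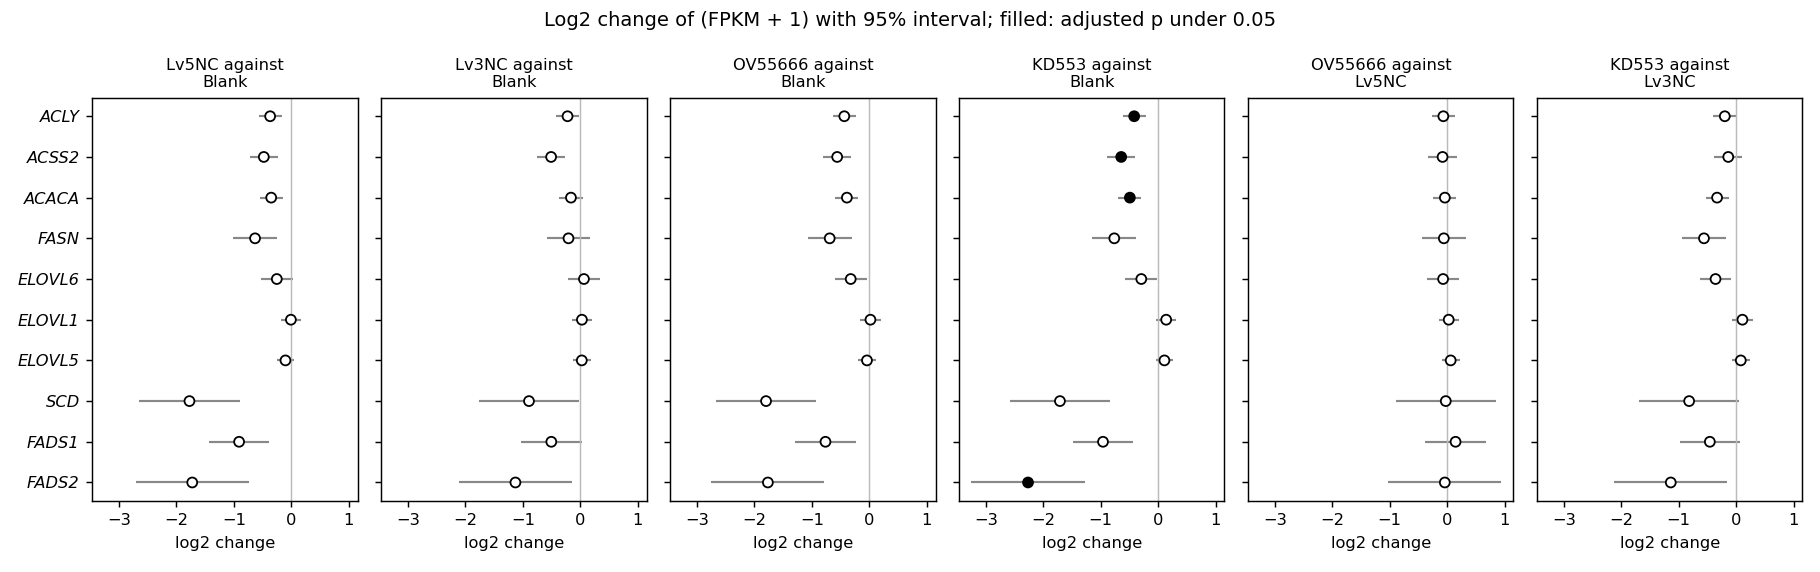
Log2 change of (FPKM + 1) for each gene in 6 comparisons, with its 95% interval from limma (horizontal axis); rows are the 10 genes. Filled points passed an adjusted p of 0.05, which occurred only for ACLY, ACSS2, ACACA and FADS2 in KD553 against Blank. In OV55666 against Lv5NC all 10 intervals include 0.

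For the question of what lowering lncRNA55666 does, KD553 was compared with Lv3NC. Lower values were measured for 8 genes and higher values for ELOVL1 and ELOVL5, and no gene of the 10 passed the adjustment, where 0.0705% of all genes tested did. The groups did not overlap for 7 lower genes (18.3% of all genes tested) and for both higher ones (19.3%), and only ACSS2 overlapped. The median log2 change was -0.35 over the 10 genes and 0.00 over all genes tested.

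Of the 10 genes, 4 had an unadjusted p under 0.05 in this comparison, against 7.52% of all genes tested. FADS2 was at a mean of 1.76 ± 0.73 FPKM in KD553 and 4.97 ± 0.39 in Lv3NC, which is 2.83-fold lower, with a log2 change of -1.14 ± 0.42 (adjusted p = 0.602). FASN was 1.53-fold lower (-0.56 ± 0.17, adjusted p = 0.470), ELOVL6 1.32-fold (-0.36 ± 0.12, adjusted p = 0.525) and ACACA 1.30-fold (-0.33 ± 0.09, adjusted p = 0.373). Those 4 did not pass the adjustment, and their 95% intervals excluded 0 before it. Without the first Lv3NC library, which had the highest FASN and ELOVL6 of that group, FASN was at -0.30, ELOVL6 at -0.19 and ACACA at -0.26, and without the second FASN was at -0.82 and ELOVL6 at -0.53.

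The remaining differences had wider intervals for their size. SCD was 1.90-fold lower in mean FPKM (-0.82 ± 0.37 on the log2 scale, adjusted p = 0.684) and FADS1 1.43-fold (-0.46 ± 0.23, adjusted p = 0.719). ACLY differed by -0.20 ± 0.09 (adjusted p = 0.664), ELOVL1 by 0.11 ± 0.08 (adjusted p = 0.819) and ELOVL5 by 0.08 ± 0.07 (adjusted p = 0.860). The interval for SCD ran from -1.69 to 0.05. Without the first Lv3NC library SCD was at -0.51 and ACLY at -0.10.

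These values differed with the control. Against Lv5NC, KD553 gave a median log2 change of -0.05 over the 10 genes, with none called, where 0.0176% of all genes tested were. SCD then had the opposite sign, at 0.06 ± 0.37, and FASN was at -0.13 ± 0.17. ELOVL5 was the only one of the 10 with an unadjusted p under 0.05 there, against 8.43% of all genes tested. Its change was 0.21 ± 0.07 (adjusted p = 0.459).

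The control groups were also compared with each other, in a comparison that shares libraries with those above. Lv3NC had higher values than Lv5NC for 9 of the 10 genes, 8 of them without overlap, where 20.2% of all genes tested were higher in this way and 10.7% lower. None was called, as for all genes tested (0%), and 3 had an unadjusted p under 0.05, against 2.67% of all genes: SCD at 0.88 ± 0.37, FASN at 0.43 ± 0.17 and ELOVL6 at 0.32 ± 0.12 on the log2 scale, each with an adjusted p of 1. The others without overlap were FADS2 (0.60 ± 0.42), FADS1 (0.41 ± 0.23), ACACA (0.19 ± 0.09), ACLY (0.15 ± 0.09) and ELOVL5 (0.13 ± 0.07), again with an adjusted p of 1. Mean SCD was 15.6 ± 4.88 FPKM in Lv3NC and 7.82 ± 0.18 in Lv5NC. The Lv3NC libraries moved these values: without the first, SCD was at 0.58, FASN at 0.17, ELOVL6 at 0.15, ACACA at 0.12 and ACLY at 0.05, and without the second, SCD was at 1.19, FASN at 0.69 and ELOVL6 at 0.48. The Lv5NC libraries moved FADS2 between 0.18 and 1.01 and FADS1 between 0.14 and 0.67.

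For the question of what raising lncRNA55666 does, OV55666 was compared with Lv5NC. None of the 10 genes was called, as for all genes tested (0%), and none had an unadjusted p under 0.05, against 1.46% of all genes. ACLY (-0.07 ± 0.09) and ELOVL6 (-0.07 ± 0.12) were lower without overlap, where 9.07% of all genes tested were, and ELOVL5 (0.06 ± 0.07) was higher, where 17.7% were, each with an adjusted p of 1. The changes of all 10 genes lay between -0.08 and 0.15 on the log2 scale, with a median of -0.04. The intervals were narrow for some genes and wide for others: ACACA ran from -0.24 to 0.16 and FADS2 from -1.03 to 0.95, so a change of FADS2 by up to about that size was not detectable with 2 libraries a group.

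The effect of overexpression minus the effect of knockdown was tested in a single contrast. None of the 10 genes passed the adjustment, as for all genes tested (0%), and 1 had an unadjusted p under 0.05, against 3.4% of all genes: ACACA, at 0.29 ± 0.13 with an adjusted p of 1. The contrast was positive for 8 genes, with 1.10 ± 0.60 for FADS2, 0.79 ± 0.53 for SCD and 0.50 ± 0.24 for FASN. ELOVL1 and ELOVL5 were at -0.08 ± 0.11 and -0.02 ± 0.10.

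Further genes of the pathway were taken from lists. Of 11 tested genes of cytosolic and mitochondrial fatty acid synthesis, SLC25A1, the carrier that exports citrate from mitochondria, fell in KD553 against Blank by 0.54 on the log2 scale (adjusted p = 0.0383), and was at -0.41 (adjusted p = 0.181) without the second Blank library. The list's median was 0.01 in that comparison and 0.06 in KD553 against Lv3NC, where none of the 11 passed. ACACB, the second acetyl-CoA carboxylase, reached at most 0.38 FPKM and was not tested.

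Among 6 tested enzymes of the elongation cycle, HACD2, a dehydratase of that cycle, fell in KD553 against Blank by 0.65 (adjusted p = 0.0205), and was at -0.50 (adjusted p = 0.0952) without the second Blank library. It was at 50.9 and 63.0 FPKM in Blank and between 33.0 and 39.1 in the other 8 libraries. The elongases ELOVL2, ELOVL3, ELOVL4 and ELOVL7 reached at most 0.07, 0.18, 0.93 and 0.10 FPKM, so ELOVL1, ELOVL5 and ELOVL6 were the elongases above 1 FPKM.

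None of the 4 tested genes in the list of other desaturases and electron carriers was called in any of these comparisons. FADS3, a relative of FADS1 and FADS2, lay between 59.3 and 72.8 FPKM, and SCD5 between 3.43 and 6.55. The ratio of SCD to SCD5 was 4.11 and 12.4 in Blank, 1.99 and 1.44 in Lv5NC, 2.94 and 1.24 in OV55666, 4.78 and 3.37 in Lv3NC, and 1.16 and 2.20 in KD553. The Lv3NC libraries were thus within or close to the Blank range for this ratio, and the other 6 libraries were below it.

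Of 14 tested regulators of lipogenesis, 3 fell in KD553 against Blank. INSIG1, which retains SREBP in the endoplasmic reticulum and is itself a known SREBP target, fell by 1.40 (adjusted p = 0.0480), SREBF2, which encodes SREBP-2, by 0.66 (adjusted p = 0.0235), and STK11, a kinase upstream of AMPK, by 0.48 (adjusted p = 0.0287). None of these 3 was called without the second Blank library, with INSIG1 at -0.94 (adjusted p = 0.137), SREBF2 at -0.54 (adjusted p = 0.147) and STK11 at -0.51 (adjusted p = 0.118). SLC25A1, HACD2 and these 3 also missed the threshold without either KD553 library, and STK11 without the first Blank library. INSIG1 was at 6.34 and 12.9 FPKM in Blank, 3.06 and 3.52 in Lv5NC, 4.08 and 2.58 in OV55666, 5.30 and 4.15 in Lv3NC, and 2.95 and 2.72 in KD553. SREBF1 lay between 3.41 and 6.43 FPKM. No regulator was called in KD553 against Lv3NC, where STK11 had the smallest p (-0.43, adjusted p = 0.186). STK11 was at 5.70 and 5.69 FPKM in KD553 and between 7.56 and 8.93 in all other libraries.

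The genes of the list of sterol synthesis, which is not limited to enzymes, were also highest in Blank. All 20 tested were lower than Blank in Lv5NC, OV55666, Lv3NC and KD553. By the same adjusted test 16 fell in KD553, 9 in OV55666, 7 in Lv5NC and none in Lv3NC. Of all 11340 genes tested, 142 (1.25%) were called lower in KD553, 27 in OV55666, 18 in Lv5NC and 12 in Lv3NC. Without the second Blank library 4 were called in KD553 and none in OV55666, Lv5NC or Lv3NC, while genes called over all those tested went from 286 to 47 in KD553, 43 to 2 in OV55666, 33 to 3 in Lv5NC and 15 to 1 in Lv3NC. Fewer sterol genes, and fewer of all genes tested, were called when either library of KD553, OV55666 or Lv5NC was left out. The sterol median was then -1.01 without the first and -0.96 without the second library of KD553. In the same order it was -0.85 and -0.78 for OV55666, and -0.79 and -0.84 for Lv5NC. Without the first Blank library 17 were called in KD553, 14 in OV55666, 14 in Lv5NC and 4 in Lv3NC. With all libraries, medians of the log2 change were -0.95 for KD553, -0.78 for OV55666, -0.83 for Lv5NC and -0.41 for Lv3NC. Without the second Blank library they were -0.80, -0.64, -0.67 and -0.28 in that order. In KD553 against Lv3NC all 20 had lower values, with a median of -0.55, and none was called. In OV55666 against Lv5NC the median was -0.01.

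**Figure D3:**
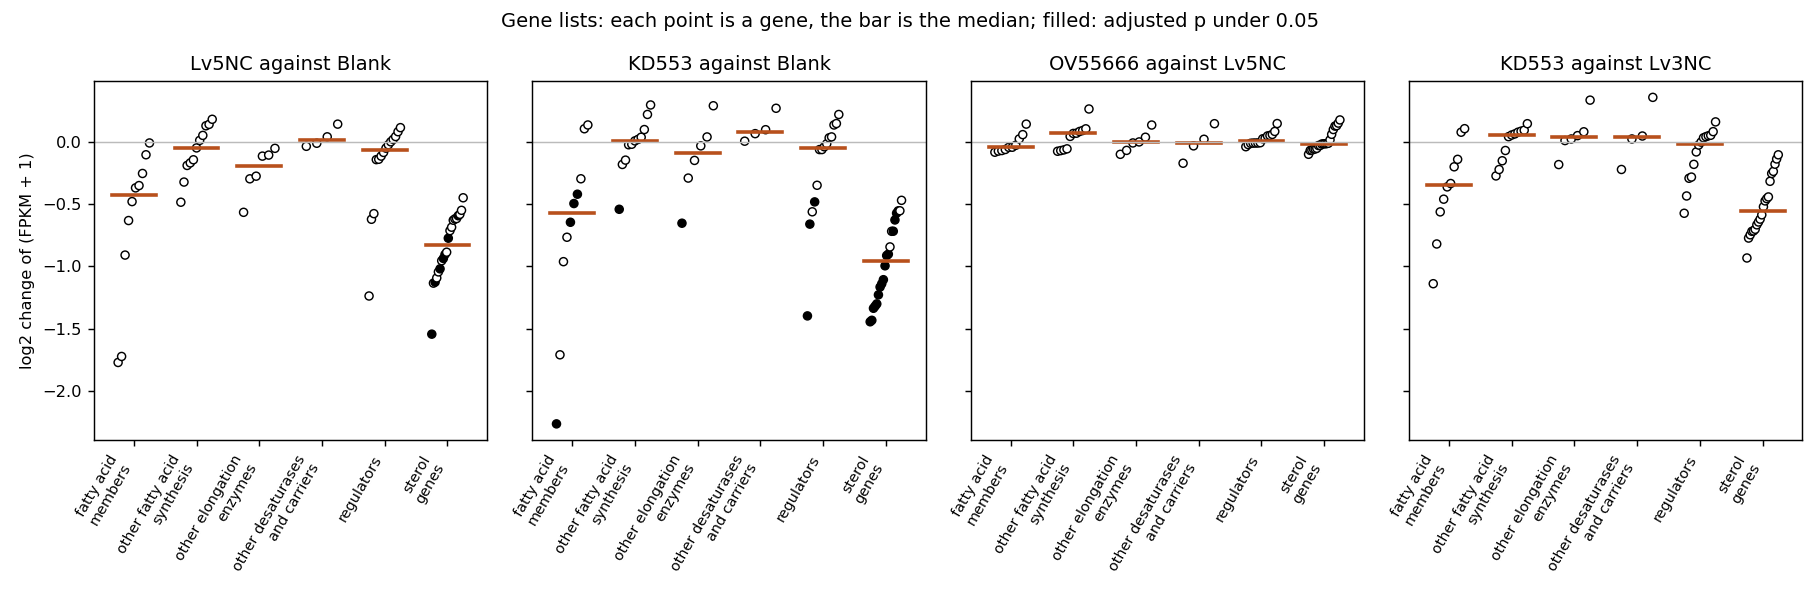
Log2 change of (FPKM + 1) in 4 comparisons for the 10 genes and for the 5 lists of other genes. Each point is a tested gene, the bar is the list's median and filled points passed an adjusted p of 0.05. The medians of the 10 genes and of the sterol genes are below 0 in each of the 4 panels, nearest to it in OV55666 against Lv5NC, at -0.04 and -0.01.

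Over the 10 libraries the genes other than ELOVL1 and ELOVL5 varied together, a division made after the values were seen. All 28 pairs of these 8 genes had a positive Pearson r on the log2(FPKM + 1) scale, with a median of 0.87 and a range of 0.54 to 0.98. These points share the library, its scaling and the difference between Blank and the other groups, so r is a description. Without the Blank libraries 27 of the 28 stayed positive and the median was 0.68. For deviations from the group means, the median was 0.59. ELOVL1 and ELOVL5 had an r of 0.66 with each other over the 10 libraries and a median of -0.18 with the others. For deviations from the group means the division did not hold for ELOVL5: its r was positive with all 8 genes, from 0.17 with FADS1 to 0.92 with FASN, and -0.19 with ELOVL1.

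**Figure D4:**
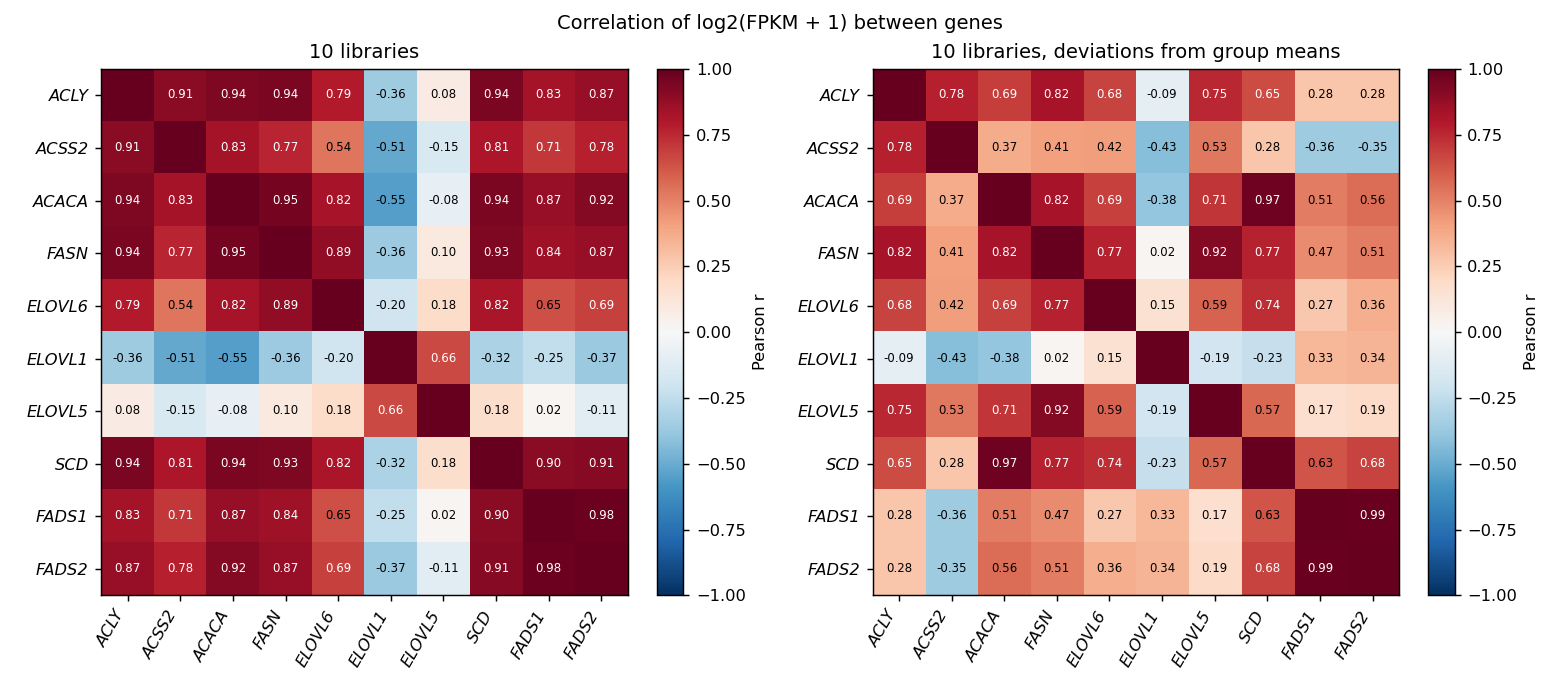
Pearson r of log2(FPKM + 1) between each pair of the 10 genes, over the 10 libraries (left) and for deviations from group means (right). On the right, r rests on 5 differences, 1 per group. Rows and columns are genes, red is positive and blue negative. The 8 genes other than ELOVL1 and ELOVL5 have r between 0.54 and 0.98 on the left.

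FADS1 and FADS2 were the closest pair, with an r of 0.98 over 10 libraries, 0.94 over the 8 without Blank and 0.99 for deviations from group means. The library with the higher FADS2 also had the higher FADS1 in 5 of 5 groups: the second of Blank, the first of Lv5NC, the first of OV55666, the second of Lv3NC and the second of KD553. Of all genes tested, 5.41% were higher in the same 5 libraries. These are also the libraries with the lower value of their group on the second principal component, which held 21.1% of the variance over all genes tested. Whether the agreement of FADS1 and FADS2 goes back to this difference between libraries was not tested. FASN was higher in 4 of these 5 libraries, SCD in 3, ACLY in 2 and ACSS2 in 1. The ratio of FADS2 to FADS1 was 0.75 and 1.02 in Blank, 0.51 and 0.35 in Lv5NC, 0.46 and 0.29 in OV55666, 0.52 and 0.53 in Lv3NC, and 0.21 and 0.32 in KD553, so FADS2 varied more than FADS1.

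**Figure D5:**
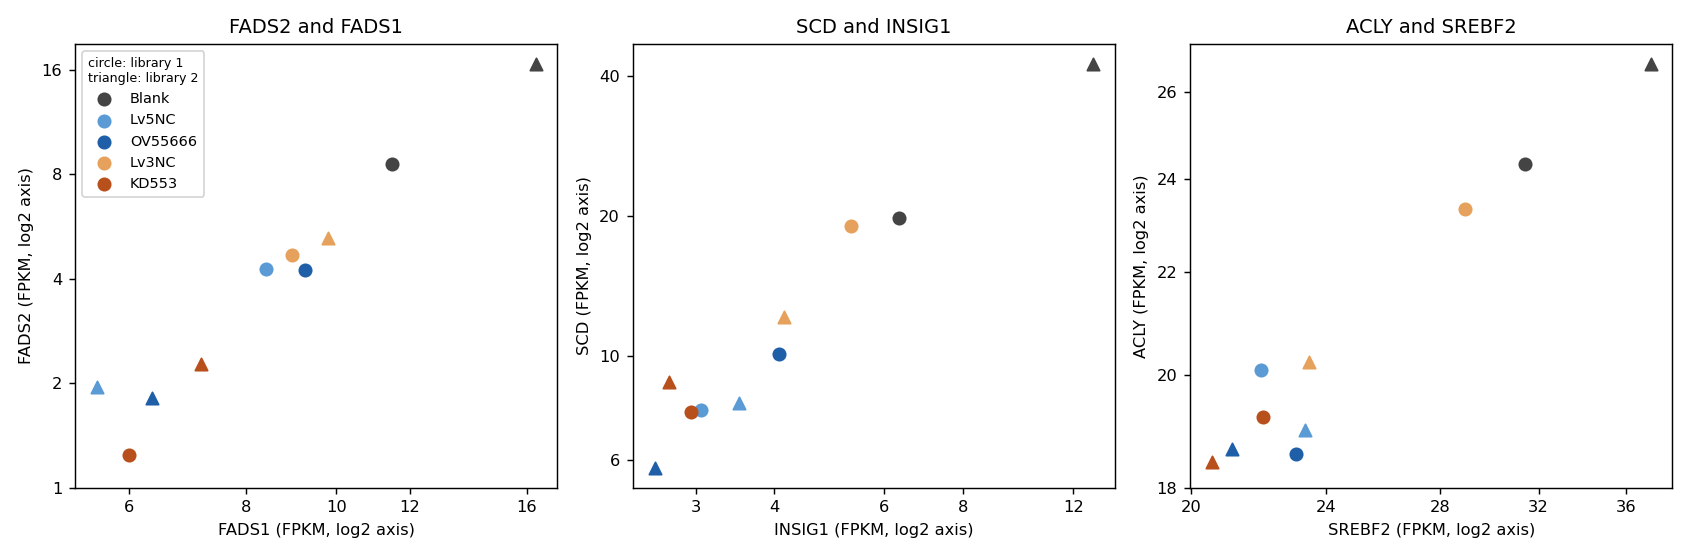
FPKM of FADS2 against FADS1, SCD against INSIG1 and ACLY against SREBF2, on log2 axes. Each point is a library, colours are groups, circles are library 1 and triangles library 2. The second Blank library is highest on every axis, and KD553, OV55666 and Lv5NC libraries are among the lowest.

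The tested genes with the highest Pearson r over 10 libraries were taken for each gene. For ACLY they included SREBF2 (0.97) and SLC25A1 (0.97), and for SCD they were INSIG1 (0.98), an unnamed locus and SLC25A1 (0.97). FASN was nearest to AACS (0.97), an acetoacetyl-CoA synthetase, and to the sterol reductase gene DHCR7 (0.96). ACACA was nearest to the mevalonate kinase gene MVK (0.98), an unnamed locus and TARBP1 (0.98). Among the 50 nearest genes, sterol list genes numbered 19 for SCD, 18 for ACLY, 17 for ACACA and 15 for FASN, of 20 among the 11340 genes tested. This ranking includes the difference between Blank and the other groups, and the 50 were not counted again without Blank. Over the 8 libraries without Blank, r with the nearest gene was 0.92 for SCD, 0.89 for ACLY, 0.96 for ACACA and 0.96 for FASN.

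The remaining genes had other neighbours. ACSS2 was nearest to ALPL (0.98), FAM184B (0.98) and PODN (0.98), with 1 sterol gene among its nearest 50. ELOVL6 was nearest to LRCH2 (0.95), TMEM97 (0.92) and EEF2KMT (0.92), with 7. FADS1 was nearest to FADS2, PLEKHJ1 (0.96) and PYGO2 (0.95), and FADS2 to FADS1, FHL1 (0.97) and PYGO2 (0.96), each with 5. ELOVL1 was nearest to SSR3 (0.95), ERP44 (0.94) and GRAMD2 (0.94), and ELOVL5 to UBE2Z (0.97), WDR44 (0.94) and H6PD (0.93), both with none.

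Marker sums were also compared between Blank and the other groups, and only the luminal sums did not overlap. Luminal markers summed to 6.32 to 9.09 FPKM in Blank and 10.1 to 13.5 in the other 8 libraries, and most of this was ESR1. Leukocyte markers summed to 18.1 to 27.7 FPKM in Blank and 22.8 to 39.0 elsewhere. Most of this was CD14, at 16.85 to 37.23 FPKM, while CD68 reached 2.33 and PTPRC at most 0.01. Basal markers, mainly the contractile genes ACTA2 and MYLK, summed to 1092 and 1800 FPKM in Blank and 888 to 1254 elsewhere. Adipocyte markers summed to 29.0 to 33.4 FPKM in Blank and 29.4 to 33.8 elsewhere. The leukocyte, basal and adipocyte ranges thus overlapped those of the other groups. The part of these genes' cells in the differences of the 10 genes was not tested.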

How the data were processed

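The authors deposited FPKM values per gene and library, per the file headers, rounded to 2 decimals. The aligner is not given in the sources used here, nor is the quantifier or the genome build, and relative depths are not analysed here. The RefSeq table of assembly ARS1.2, used for symbols only, held 16658 of the identifiers and lacked 539.

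Values were analysed as log2(FPKM + 1), with no further scaling, for genes of at least 1 FPKM in at least 2 libraries. limma 3.58.1 in R 4.3.3 fitted a mean per group to all 10 libraries (trend and robust options, 5 residual degrees of freedom). The Benjamini-Hochberg adjustment covered all genes tested, and calls needed an adjusted p under 0.05. The fit was tested on simulated data. The control of a manipulation was the group that the series text names just before it. FPKM folds are ratios of group means.

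The members and lists were chosen with earlier results of these data known. By rule, all 10 genes were named, as were called genes of each list or up to 3 with the smallest p, and the 3 nearest genes of each member. Not every gene the rule takes is reported here. Same-numbered libraries deviated together (correlation above 0.1) in 3 of 10 pairs of groups, and no label ties the numbers to a batch, so they were not treated as a pairing. Alternatives were another pseudocount, filters, scalings, controls, fits, a replicate block and leaving out each library.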

Additional observations from a re-analysis of the deposited data

How the results depend on the processing

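In KD553 against Blank, 4 of the 10 genes were called with a pseudocount of 0.1, a filter in all 10 libraries, either scaling or no trend and robust options. They were 2 with no filter, 1 with only the groups compared, and 0 to 6 when a library was left out. Genes called among all tested were 286, against 87 with only the groups compared and 34 to 572 without a library, and the members' median was -0.67 with the other pseudocount.

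With the replicate block, KD553 against Blank gave 170 genes and 1 member, KD553 against Lv3NC gave 1 gene, and Lv5NC, Lv3NC and OV55666 against Blank gave 0. Same-numbered libraries deviated together in Lv5NC and OV55666 (correlation 0.50), Lv3NC and KD553 (0.44) and Blank and KD553 (0.16), but not in the other 7 of 10 pairs of groups (-0.62 to 0.05). No label says that a number marks a shared batch, so the numbers were not taken as a pairing.

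In KD553 against Lv3NC 8 genes were called in all. They were 0 with only the groups compared, 2 with Lv5NC and 286 with Blank as the control, and 0 to 3 without a library. Of the members, 4 were called with Blank as the control. The members' median was -0.052 with Lv5NC, -0.57 with Blank and -0.40 to -0.23 without a library, and SCD turned to 0.062 with Lv5NC. In OV55666 against Lv5NC 1 gene was called with a pseudocount of 0.1 and 43 with Blank as the control. The members' median was -0.50 with Blank, -0.24 with Lv3NC and -0.091 to 0.056 without a library. ELOVL5 turned to -0.039 with Blank and -0.066 with Lv3NC.

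In Lv5NC against Blank 33 genes were called, 18 with the other pseudocount, 13 with no filter and 0 to 288 without a library, with 0 to 1 member. In Lv3NC against Blank 15 were called, 6 with that pseudocount, 7 with no filter, 7 with the filter in all 10 libraries, 56 with only the groups compared and 0 to 292 without a library. The members' median ran from -0.38 to -0.11, and ELOVL1 turned to -0.038 with quantile normalization. In Lv3NC against Lv5NC 1 gene was called with no filter, and the median ran from 0.13 to 0.30. In OV55666 against Blank 43 were called, 4 with that pseudocount, 9 with no filter, 27 with the filter in all libraries, 14 without trend and robust options, 78 with only the groups compared and 1 to 362 without a library, with 0 to 2 members. Its median was -0.59 with that pseudocount. The cause was not tested.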
